A study of Mus musculus with 6 samples.

Results

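Cd274 encodes PD-L1, a surface ligand of the immune checkpoint receptor PD-1. Its level was followed across myeloid and lymphoid cells of the liver, at the sites and for the tumour lines of the study. It was taken as the feature whose symbol is Cd274, 1 gene of the 5301 that the deposited matrices hold together. The data were 10x Genomics single-cell RNA-seq libraries of CD45+ cells sorted from pieces of Balb/c mouse liver, after intracardiac injection of 4T07 cells (spelled 4TO7 in some labels), a mouse mammary tumour line. The tumour cells carried either a scramble shRNA (Ctrl) or shRNAs against Tim3 (Tim3-KD). There were 6 libraries: adjacent tissue without tumour (day 3), micrometastasis (day 3) and macrometastasis (day 12), each from Ctrl and from Tim3-KD. The knockdown was in the injected tumour cells and not in the sorted immune cells, which all came from unmodified hosts, so the targeted gene could not be checked in these libraries. Each library was the only library of its group and pooled 2 mice, and there were no replicates to test groups against, so p-values are absent. Every interval below is a 95% interval that covers counting error only and not the spread between mice. Cd274 was one of the 4486 genes of the adjacent tissue matrix and of the 2669 genes of the micrometastasis matrix. Its level in macrometastasis was not analysed here.

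PD-L1 binds PD-1 on T cells and dampens their activation, and its partner PD-L2 (Pdcd1lg2) shares that receptor. PD-L1 also pairs with CD80 on the same cell. Interferon gamma is the best known inducer of Cd274, and inflammatory signals through NF-kB raise it too. In liver, PD-L1 is known on Kupffer cells, sinusoidal endothelium and infiltrating myeloid cells, and neutrophils and B cells can also carry it.

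Cd274 (ENSMUSG00000016496.7) lies on the plus strand of chromosome 19, chr19:29367455-29388095 in GRCm38 as annotated by GENCODE. It has 1 annotated transcript of 7 exons. The 3' UTR, where reads of a 3' library gather, covers 2686 bases at 29385410 to 29388095. The antisense gene AC119228.1 (29373417 to 29384471) lies within the gene. The sources used here do not give the strand setting of the counting, and reads over introns were counted, so reads of the antisense gene could not be told apart from those of Cd274. The neighbour Plgrkt ends 64 bases upstream on the minus strand.

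The 4 libraries with Cd274 held 12593 cells and between 7086531 and 79971659 UMIs (unique molecular identifiers, one per captured RNA molecule). Adjacent Tim3-KD was the smallest, with 542 cells against 1803, 5106 and 5142 cells in adjacent Ctrl, micrometastasis Ctrl and micrometastasis Tim3-KD. Of 22948 barcodes over all 6 libraries, 59 occurred in more than 1 library, and 0 were shared between the adjacent libraries. Ptprc, which encodes CD45, was not analysed here, so the sort could not be checked on its own gene. Cells of other kinds were present. The summed level of endothelial markers was 40.0 CPM (UMIs per 1000000 UMIs over all genes) in adjacent Ctrl against 744 CPM in adjacent Tim3-KD, and 144 against 57.6 CPM in micrometastasis. Hepatocyte markers summed to 107 and 473 CPM in adjacent tissue and to 176 and 134 CPM in micrometastasis. Cells were grouped, without using Cd274, into 24 clusters and 12 classes named from marker genes. Class names are meant as "like": the T class, for example, holds T-like cells. Within each class and library nearly all of its markers were higher than in the other cells, with the weakest record in lesion macrophages of both adjacent libraries (4 of 6 markers) and in monocytes of adjacent Tim3-KD (10 of 12). The lesion macrophage class was named from 2 of its markers (Spp1, Trem2) among its 10 leading genes, which began with Ccl24 and Sdc4 and held MHC class II genes. Of its genes at least 2-fold higher, 3 were lesion macrophage markers and 8 were monocyte markers.

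Over whole libraries Cd274 was a low-abundance transcript. Adjacent Ctrl had 679 UMIs, or 22.2 CPM (20.5 to 23.9). Adjacent Tim3-KD had 166 UMIs, or 23.4 CPM (20.0 to 27.3). Micrometastasis Ctrl had 1264 UMIs and 22.6 CPM (21.4 to 23.9), and micrometastasis Tim3-KD had 1255 UMIs and 15.7 CPM (14.8 to 16.6). Micrometastasis Tim3-KD was thus the lowest library, and the intervals of the other libraries overlapped. In all, 2170 cells had a Cd274 UMI: 22.7% of adjacent Ctrl cells, 18.6% of adjacent Tim3-KD cells, 15.8% of micrometastasis Ctrl cells and 16.6% of micrometastasis Tim3-KD cells. Most of them had a single one, from 62.6% to 70.1% of positive cells, and no cell had more than 10. After thinning every cell to 1500 UMIs, so that deep and shallow cells compare, the shares were 6.93%, 4.06%, 4.41% and 3.79% in the same order.

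Mature neutrophils and B cells had the most Cd274 per UMI in control adjacent tissue. Mature neutrophils, the largest class there with 572 cells, stood at 89.6 CPM (80.3 to 99.7). B cells stood at 65.7 CPM (54.3 to 78.8). Lesion macrophages (Spp1, Trem2) followed at 55.8 CPM (36.8 to 81.2) in 38 cells, then T cells at 42.8 CPM (32.7 to 55.0) and Kupffer cells, the resident macrophages of liver sinusoids, at 29.2 CPM (14.6 to 52.3). Between these neighbours the intervals overlapped, except between mature neutrophils and B cells. In other clusterings the lesion macrophage cluster held 14 (resolution 0.6), 9 (resolution 1.5) or 6 (clustered with Cd274) cells of adjacent Ctrl, so this level rests on the main clustering. NK or ILC1 cells had 16.6 CPM (4.52 to 42.4) in 31 cells. At the bottom of the order, and not separable from each other, were monocytes at 6.36 CPM (4.62 to 8.53), dendritic cells at 5.03 CPM (1.04 to 14.7), progenitors at 4.601 CPM (2.30 to 8.23) and neutrophil precursors at 4.56 CPM (3.46 to 5.91). A class of 17 basophils or mast cells had 52.4 CPM (22.6 to 103).

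In the control micrometastasis the top of the order was different. B cells came first at 70.5 CPM (61.5 to 80.4; 649 cells). Lesion macrophages at 57.1 CPM (51.0 to 63.7; 527 cells) and Kupffer cells at 53.4 CPM (44.7 to 63.3; 274 cells) followed with overlapping intervals. Mature neutrophils, at 30.5 CPM (27.3 to 33.9), and T cells, at 25.002 CPM (18.9 to 32.4), lay clearly below those 3 classes and overlapped each other. NK or ILC1 cells had 19.3 CPM, dendritic cells 10.9 CPM (6.77 to 16.7), endothelial cells 10.5 CPM, monocytes 9.68 CPM (7.72 to 12.0) and progenitors 8.44 CPM. Neutrophil precursors were last at 2.20 CPM (1.54 to 3.04). Basophils or mast cells had 21.1 CPM (9.10 to 41.5).

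In micrometastasis Tim3-KD the first 3 classes were again B cells, lesion macrophages and Kupffer cells. B cells had 107 CPM (75.6 to 148; 73 cells), lesion macrophages 92.8 CPM (78.3 to 109; 189 cells) and Kupffer cells 89.0 CPM (77.2 to 102; 255 cells), and these 3 overlapped. T cells at 34.9 CPM (27.0 to 44.3) and mature neutrophils at 29.5 CPM (26.9 to 32.2) came next, again overlapping. NK or ILC1 cells had 25.9 CPM, dendritic cells 24.96 CPM (14.8 to 39.4), progenitors 13.1 CPM (9.27 to 18.0), monocytes 8.46 CPM (7.02 to 10.1) and precursors 3.50 CPM (2.94 to 4.14). In adjacent Tim3-KD only B cells (34.0 CPM, 26.9 to 42.5), Kupffer cells (23.4 CPM, 16.4 to 32.3), T cells (19.9 CPM, 13.7 to 28.0) and endothelial cells (4.85 CPM, 0.123 to 27.0) had 30 cells or more. The intervals of the first 3 overlapped.

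**Figure D1:**
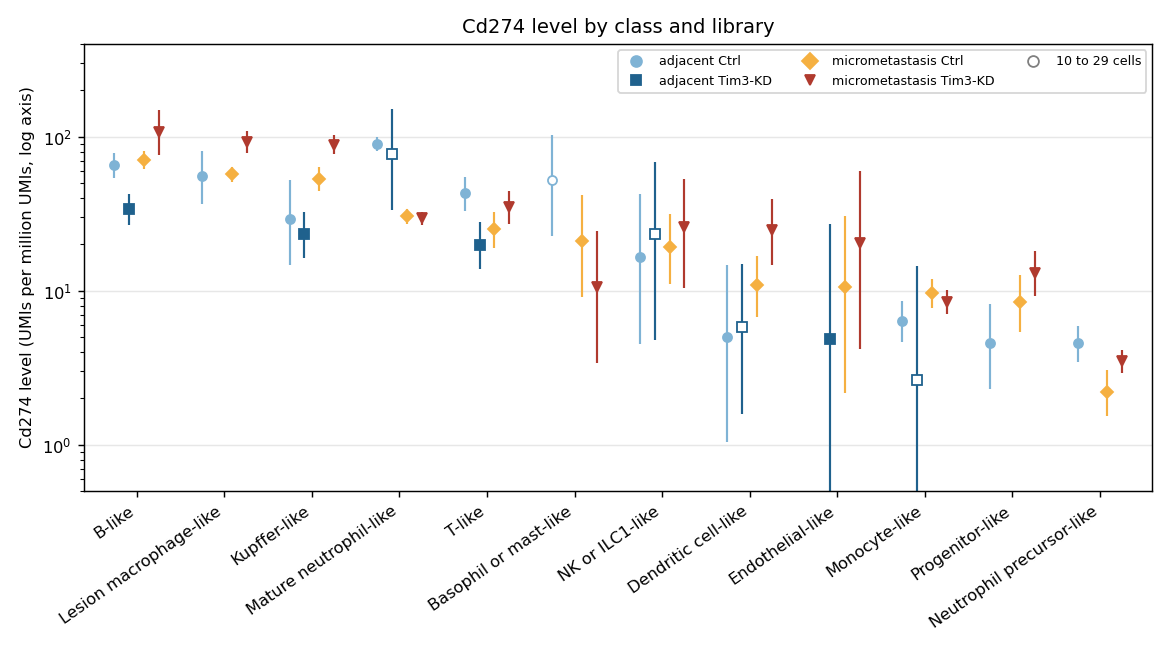
Cd274 level in CPM (log axis) by cell class in each of the 4 libraries that hold the gene, with 95% counting intervals, and hollow points for classes of 10 to 29 cells. Neutrophil precursors sit near the bottom in the 3 libraries that have them, at 2.20 to 4.56 CPM, and B cells sit between 34.0 and 107 CPM.

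The share of cells with a UMI gave another order, and depth differed between classes. Precursors had deep cells, with median UMIs from 29060 to 32244 over the 3 libraries with at least 347 of them, and 5.996% to 9.51% of them had a Cd274 UMI. After thinning to 1500 UMIs the shares of precursors were 1.15% in adjacent Ctrl, 0.193% in micrometastasis Ctrl and 0.456% in micrometastasis Tim3-KD. Free RNA is diluted more by thinning in deep cells than in shallow ones, so these shares do not bound what it gives to the shallower classes, and its part was not tested. Without thinning, 23.6%, 21.1% and 37.0% of B cells had a UMI, at median UMIs of 5144, 3484 and 4270. Thinned shares of B cells were 9.27%, 8.78% and 13.7% in the same libraries, and those of lesion macrophages were 10.5%, 9.30% and 9.52%. Thinned mature neutrophils had 13.1% in adjacent Ctrl and 4.26% and 5.14% in micrometastasis Ctrl and Tim3-KD. Thinned monocytes had 0.413%, 1.98% and 2.04%, the first of these below the precursors of the same library.

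Within the neutrophil lineage Cd274 was highest in mature clusters and differed among them. The highest cluster was one led by Acod1, the itaconate-producing enzyme, and Isg15, an interferon-induced protein. It had 128 CPM (113 to 143) in 411 cells of adjacent Ctrl, 80.1 CPM in 258 cells of micrometastasis Ctrl and 158 CPM (86.5 to 266) in 23 cells of micrometastasis Tim3-KD. That cluster was assigned on 8 neutrophil markers, with 0 of them among its 10 leading genes. A cluster led by the acute phase gene Saa3 and the cytokine gene Il1b had 80.3, 41.7 and 58.3 CPM in the same 3 libraries. Lower still was a cluster led by Prok2 and Stfa2, with 31.6, 10.3 and 14.6 CPM, and one led by Stfa3 and Mmp9 had 9.40, 6.12 and 19.7 CPM. The precursor clusters were lower, at 6.45, 2.76 and 2.66 CPM for the one led by Ly6g and the granule gene Ltf, and at 4.59, 1.76 and 4.27 CPM for the one led by the azurophil granule genes Ctsg and Mpo. Levels of the mature clusters therefore ran from 6.12 to 158 CPM, and the class mean depends on which of them a library holds.

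Monocyte clusters differed too. The cluster led by Thbs1 and the chemokine receptor gene Ccr2 had 13.9 CPM in adjacent Ctrl, 12.9 CPM in micrometastasis Ctrl and 21.4 CPM in micrometastasis Tim3-KD. The cluster led by Ass1 and F13a1 had 1.43, 0.853 and 3.46 CPM.

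**Figure D2:**
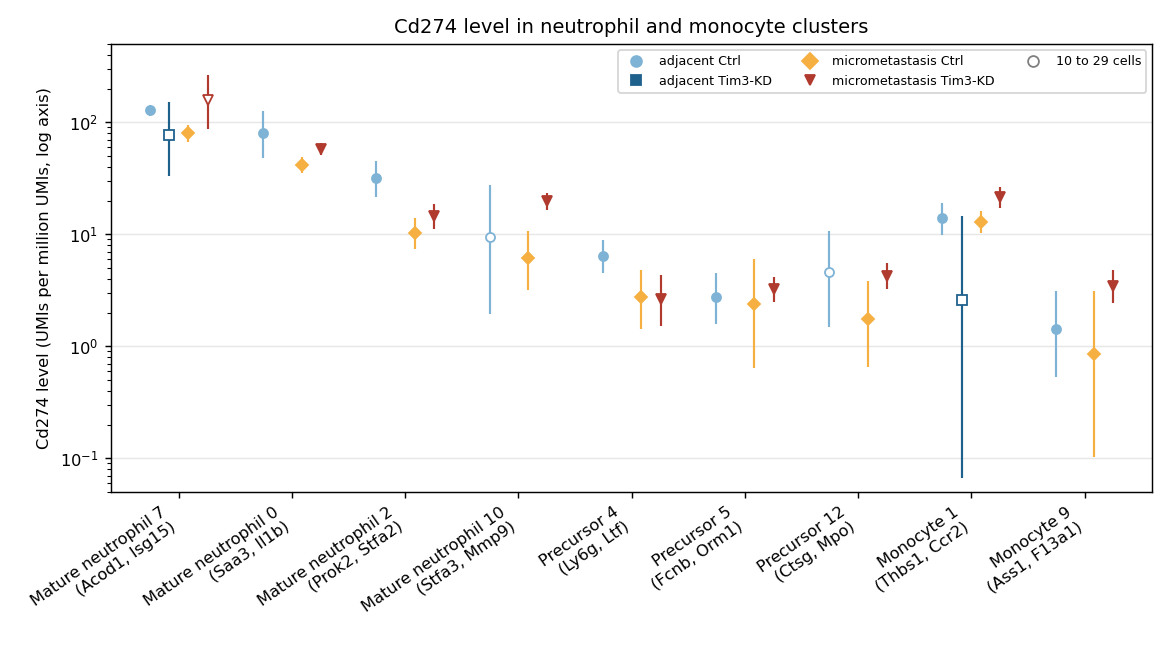
Cd274 level in CPM (log axis) by cluster in each of the 4 libraries that hold the gene, with 95% counting intervals and hollow points for clusters of 10 to 29 cells. The mature neutrophil cluster led by Acod1 and Isg15 reaches 128 CPM in adjacent Ctrl, whereas the clusters of neutrophil precursors stay at or below 6.45 CPM.

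Lymphoid clusters were split as well. The main B cell cluster had 77.3 CPM in adjacent Ctrl, 33.7 CPM in adjacent Tim3-KD, 74.5 CPM in micrometastasis Ctrl and 116 CPM in micrometastasis Tim3-KD. A second B cluster, led by Vpreb3, had 25.3 CPM in 59 cells of adjacent Ctrl and 55.7 CPM in 142 cells of micrometastasis Ctrl. T and NK cells were clustered again among themselves. Regulatory and activated CD4 cells had 67.6 and 59.0 CPM in adjacent Ctrl and Tim3-KD and 41.7 and 48.0 CPM in micrometastasis Ctrl and Tim3-KD. Naive-like cells had 14.8, 2.89, 4.83 and 12.2 CPM in the same order, on 6, 2, 3 and 2 UMIs against 17, 18, 13 and 6 UMIs in the CD4 cells, and the counting intervals of the pair overlapped in micrometastasis Tim3-KD (1.479 to 44.1 and 17.6 to 104 CPM). Effector CD8 cells had 38.2 CPM in micrometastasis Ctrl and 39.5 CPM in micrometastasis Tim3-KD. A micrometastasis T/NK subcluster that also carried B cell genes stood at 87.4 and 62.9 CPM, and another with myeloid genes stood at 75.5 CPM in Tim3-KD.

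In the micrometastasis the library level of Cd274 was lower with Tim3-KD, yet within most classes it was not. The Tim3-KD over Ctrl ratio of library CPM was 0.695 (0.642 to 0.752). The ratio was close to the median over all 2669 genes, 0.741, and 41.9% of genes had a lower ratio. Over the whole library, 37.5% of genes were at least 1.5-fold lower with an interval off 1 and 2.7% were higher. Counted per cell, the level was 0.248 UMIs (Ctrl) and 0.244 UMIs (Tim3-KD), with a ratio of 0.986 (0.911 to 1.07). The libraries differed in makeup. Neutrophil precursors, which have little Cd274 and many UMIs, were 10.1% of Ctrl cells and 25.6% of Tim3-KD cells, and held 29.3% and 48.6% of all UMIs. B cells gave 17.5% of the Cd274 UMIs of Ctrl but 2.95% of those of Tim3-KD.

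**Figure D3:**
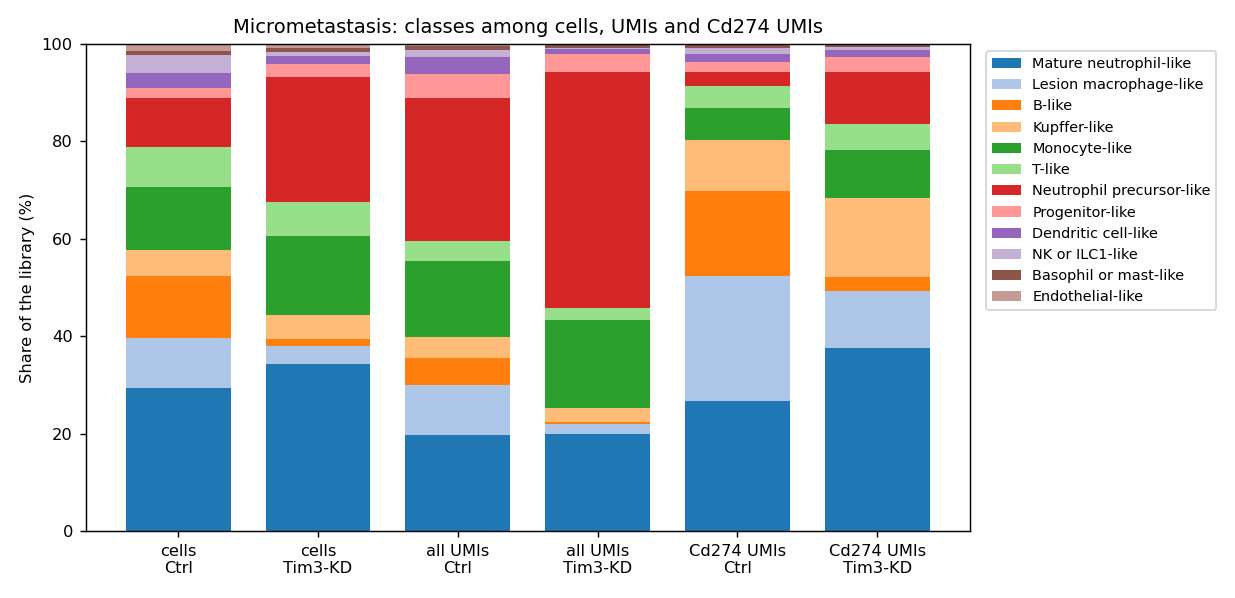
Stacked bars of the share (percent) of cells, of all UMIs and of Cd274 UMIs that each class gives in micrometastasis Ctrl and Tim3-KD. Neutrophil precursors hold 29.3% of all UMIs in Ctrl and 48.6% in Tim3-KD, and mature neutrophils give 26.7% of the Cd274 UMIs in Ctrl and 37.7% in Tim3-KD.

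With both libraries set to 1 class mix over the 12 classes, the level of Cd274 came to 17.8 CPM (Ctrl) and 23.4 CPM (Tim3-KD), with a ratio of 1.31 (1.196 to 1.43). Per cell it was 1.31 as well (1.19 to 1.44). Held at 1 mix of clusters, it was 1.59 (1.44 to 1.75). Of the 12 classes, 5 were at least 1.5-fold higher in Tim3-KD with an interval off 1, 0 were lower and 7 were neither. By the same rule 4.22% to 22.3% of all genes were higher within a class and 3.4% to 26% lower. Per cell the intervals of 5 classes lay above 1 too, with mature neutrophils in place of dendritic cells, and of these 5 only the Kupffer ratio was over 1.5, which did not hold within its main cluster.

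Dendritic cells had 21 UMIs in 161 Ctrl cells and 18 UMIs in 82 Tim3-KD cells, and their CPM ratio of 2.28 (1.15 to 4.50) was the highest of the 5. One Tim3-KD dendritic cell held 6 of the 18 UMIs, and without the cell of most Cd274 UMIs in each library the ratio was 1.80 (0.790 to 3.95). Chosen after seeing the data, this alternative left the intervals of 3 classes above 1. In this class 7.98% of genes were higher and 7.32% lower. Per dendritic cell the ratio was 1.68, and its interval spanned 1 (0.845 to 3.32). Within this class, the type 1 conventional cells (led by Clec9a) had 6.08 CPM for Ctrl against 30.0 CPM for Tim3-KD, a ratio of 4.94 (2.00 to 13.3), which was 3.16 (1.12 to 9.22) without that cell. Plasmacytoid cells (led by Siglech), with 13 and 2 UMIs, had a ratio of 0.493 (0.0540 to 2.18).

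Kupffer cells had a ratio of 1.67 (1.33 to 2.09), and 11.1% of genes were higher and 3.4% lower. Lesion macrophages had a ratio of 1.62 (1.33 to 1.98), where 22.3% of genes were higher and 8.06% lower. Per cell the macrophage ratio was 1.248 (1.02 to 1.52), under the 1.5-fold limit, and that of Kupffer cells was 1.66. The Kupffer cluster with less Cd274, at 12.96 CPM in Ctrl, held 62 of 274 Ctrl cells and 3 of 255 Tim3-KD cells. Within the other Kupffer cluster the ratio was 1.51 (1.21 to 1.90), and per cell 1.34 (1.07 to 1.69). At a finer clustering (resolution 1.5) a dendritic-like cluster led by Cd209a split off, with 56 Ctrl and 48 Tim3-KD cells. Lesion macrophages were then 458 Ctrl and 135 Tim3-KD cells, with a ratio of 1.51 (1.198 to 1.89), and 1.38 (1.09 to 1.74) when Cd274 was among the clustered genes. Neutrophil precursors had a ratio of 1.59 (1.10 to 2.37), with 5.04% of genes higher and 10% lower, although the difference of their mean deposited scores (Tim3-KD minus Ctrl) was -0.0052. The precursor clusters differed between the libraries: those led by Ly6g and Ltf, by Fcnb and by Ctsg and Mpo held 233, 46 and 59 Ctrl cells against 384, 600 and 331 Tim3-KD cells, and a 4th held 179 Ctrl cells and 0 Tim3-KD cells. Within the first 3 the ratios were 0.965 (0.428 to 2.23), 1.37 (0.510 to 5.18) and 2.42 (1.05 to 6.89). B cells had a ratio of 1.52 (1.05 to 2.17), with 4.86% higher and 7.52% lower. Per cell, precursors and B cells were both at 1.49. The B cell value rests on 37 UMIs in the 73 B cells of Tim3-KD, and without the cell of most Cd274 UMIs in each library it was 1.46 (0.985 to 2.10).

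The other classes gave intervals that spanned 1. T cells had a ratio of 1.39 (0.965 to 2.02; 8.77% of genes higher, 10.5% lower) and progenitors of 1.55 (0.907 to 2.705; 7.8% higher, 5.85% lower). NK or ILC1 cells had 1.34 (0.466 to 3.44; 5.46% higher, 20% lower) and endothelial cells 1.93 (0.259 to 14.4; 11% higher, 14.8% lower). T cells of the cluster led by Il7r and Lef1, which were 219 of 418 Ctrl and 85 of 355 Tim3-KD T cells, had a ratio of 2.33 (1.15 to 4.69), and those led by Cd8b1 a ratio of 0.942 (0.532 to 1.69). Monocytes had 0.874 (0.657 to 1.17; 10.9% higher, 26% lower), but both of their clusters had a ratio over 1, at 1.66 (1.21 to 2.27) for the one led by Thbs1 and Ccr2 and 4.05 (1.04 to 34.7) for the one led by Ass1 and F13a1. The latter, which has less Cd274, was 73 of 657 Ctrl and 363 of 833 Tim3-KD monocytes. Basophils or mast cells had 0.499 (0.128 to 1.73; 4.22% higher, 13.2% lower). Mature neutrophils had a ratio of 0.967 (0.839 to 1.12; 5.96% higher, 14.1% lower), on 338 and 473 UMIs, and per cell a ratio of 1.19 (1.03 to 1.37). Their clusters did not share that value: the cluster led by Saa3 and Il1b had a ratio of 1.40 and the one led by Stfa3 and Mmp9 a ratio of 3.22. Among 20 clusters, 16 had a ratio over 1, the whole interval was above 1 in 10, and it was below 1 in 0.

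**Figure D4:**
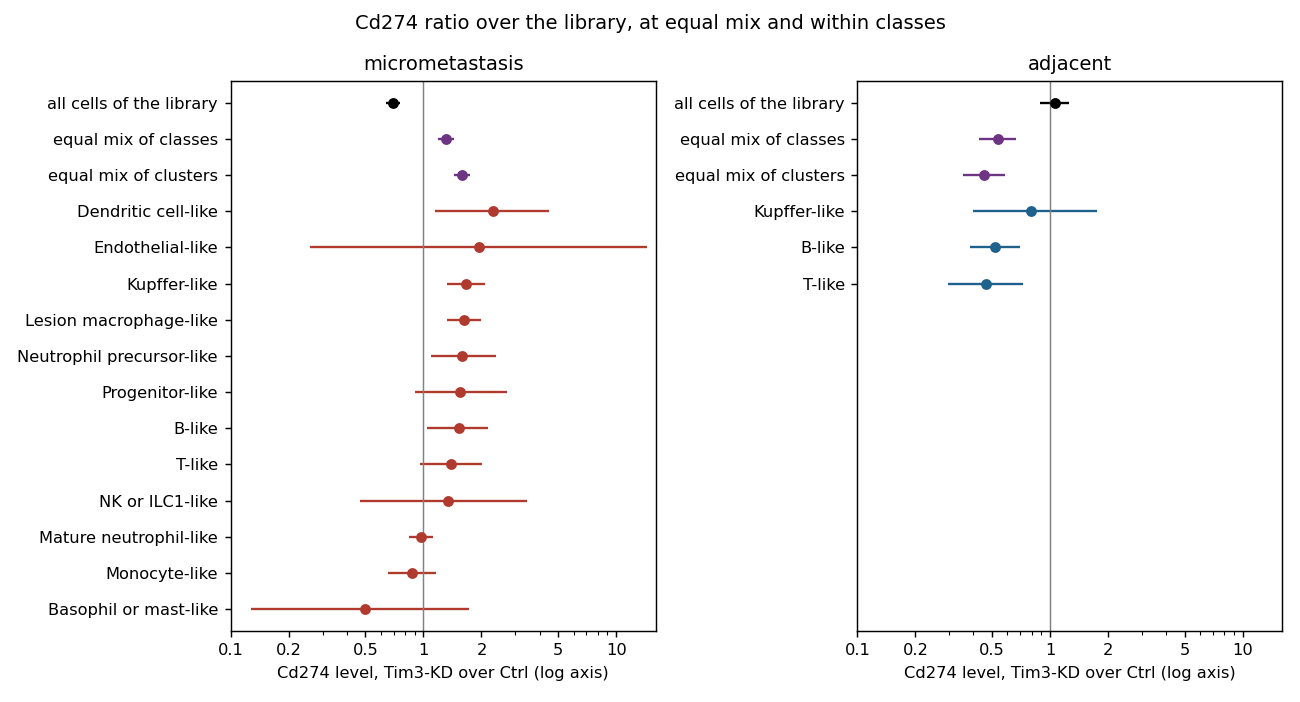
Tim3-KD over Ctrl ratio of Cd274 CPM (log axis) by class at each site, with 95% counting intervals, and a line at 1. Micrometastasis ratios run from 0.499 to 2.28 with 9 of 12 over 1, and the 3 adjacent tissue ratios lie at 0.466 to 0.799.

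Reads of marker genes of other cell types were present within these classes too, and their levels differed between the libraries in either direction. Whether they came from other cells was not tested. The 11 measured markers of mature neutrophils summed to 51.0 CPM in B cells of micrometastasis Ctrl and to 305 CPM in those of Tim3-KD, to 145 and 579 CPM in Kupffer cells, and to 465 and 820 CPM in lesion macrophages. If Cd274 came along at the ratio it has to these markers within mature neutrophils, it would add 0.541 CPM to B cells, 1.03 CPM to Kupffer cells and 1.45 CPM to lesion macrophages of Tim3-KD, beside levels of 107, 89.0 and 92.8 CPM. The 13 B cell markers summed to 225 and 376 CPM in T cells, which would carry 1.24 and 4.37 CPM, and to 878 and 378 CPM in dendritic cells, which would carry 4.84 and 4.40 CPM. For T cells and dendritic cells this is a larger part of the level. In adjacent Ctrl the same reckoning gave monocytes 6.37 CPM from the mature neutrophil markers, beside a Cd274 level of 6.36 CPM, and dendritic cells 2.897 CPM from these and 2.52 CPM from the B cell markers, beside a level of 5.03 CPM. In neutrophil precursors, which share these markers by lineage, the mature neutrophil markers summed to 3667 and 2609 CPM, which would carry 5.18 and 4.63 CPM, above the whole Cd274 levels of 2.20 and 3.50 CPM. The part of such reads in these results was not tested.

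Genes known as targets of interferon gamma differed in the same macrophages. Of 20 such genes tested in lesion macrophages, 14 were at least 1.5-fold higher with Tim3-KD and 1 was lower, and their median ratio was 1.90 against 1.16 over all genes of that class. The immunity-related GTPase gene Iigp1 went from 7.75 to 37.1 CPM, a ratio of 4.78 (3.18 to 7.25). The guanylate-binding protein gene Gbp2b went from 47.2 to 173 CPM, a ratio of 3.67 (3.09 to 4.36). Cxcl9, a chemokine that draws T cells, had 24.1 and 40.9 CPM, a ratio of 1.70 (1.24 to 2.30). Cd40 was the member that was lower, with 44.2 and 28.8 CPM. Of 17 type I interferon targets in these cells 5 were higher and 0 lower, near the 22.3% of all genes that were higher, with a median of 1.11. Of 16 NF-kB and inflammatory genes 9 were higher and 2 lower, with a median of 1.59. These list ratios are in CPM at the main clustering, and the median depth of the class was 10291 UMIs (Ctrl) and 7709 UMIs (Tim3-KD). They were not counted per cell, which lowered the Cd274 ratio to 1.248. They were also not repeated at the finer clustering, where a dendritic-like cluster split off.

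In the other classes with a higher Cd274, the lists did not move alike. B cells had 7 of 13 NF-kB and inflammatory genes higher and 0 lower, with a median ratio of 2.08 against 0.970 over all genes, of which 4.86% were higher and 7.52% lower. Nfkbia, the inhibitor that NF-kB induces, had 338 and 627 CPM, a ratio of 1.86 (1.598 to 2.15), and the growth regulator gene Myc had 95.1 and 203 CPM. Il1b and Acod1, which mark neutrophils as well, were among the 7: Il1b had 27.8 CPM and 116 CPM in these B cells. Of 14 interferon gamma targets in B cells 0 were higher and 1 was lower, against the same shares of all genes. Dendritic cells had 4 of 12 interferon gamma targets higher and 0 lower (median 1.69) and 6 of 11 type I targets higher and 0 lower (median 1.61), beside 7.98% of all genes and a median of 1.02, with the serpin gene Serpina3g at 31.3 and 233 CPM and the chemokine gene Cxcl10 at 8.34 and 38.8 CPM. Of the interferon gamma targets, Kupffer cells had 2 of 19 higher and 1 lower, with a median of 1.05 beside 1.10 over all genes, of which 11.1% were higher and 3.4% lower. Precursors had 3 of 14 higher and 0 lower, with a median of 1.18, where 5.04% of all genes were higher and 10% lower and their median was 0.963. Classes in which Cd274 was not called went both ways. Monocytes had 2 of 19 higher and 9 lower, where 10.9% and 26% of all genes were higher and lower, T cells had 0 of 16 higher and 4 lower (8.77% and 10.5% of all genes), and mature neutrophils 1 of 15 higher and 2 lower (5.96% and 14.1%). Progenitors had 6 of 13 higher (7.8% of all genes) and endothelial cells 5 of 10 higher (11%), with 0 lower in either. The NF-kB and inflammatory genes went both ways too, beside the shares of all genes given above. Kupffer cells had 3 of 15 higher and 0 lower, progenitors 4 and 0 of 14, endothelial cells 8 and 0 of 10, and T cells 1 and 1 of 13. Precursors had 0 and 5 of 15, dendritic cells 2 and 4 of 13, monocytes 1 and 9 of 16, and mature neutrophils 1 and 7 of 14. NK or ILC1 cells had 0 and 6 of 11, and basophils or mast cells 1 and 4 of 14. In adjacent tissue none of the interferon gamma targets tested was higher in CPM with Tim3-KD: B cells had 6 of 12 lower with a median of 0.568 (18.9% of all genes lower, median 0.893), Kupffer cells 11 of 17 with 0.540 (5.74%, 1.09) and T cells 7 of 16 with 0.644 (20.8%, 0.815). Median depth there was 5144 (Ctrl) and 9590 UMIs (Tim3-KD) in B cells, 7332 and 12530 in T cells, and 12040 and 10095.5 in Kupffer cells. The lists were not counted per cell, so the fall in the deeper B and T cells may depend on the scale, as that of Cd274 does. In the micrometastasis endothelial cells the mature neutrophil markers summed to 579 CPM (Ctrl) and 3827 CPM (Tim3-KD), and their part in the endothelial counts was not tested.

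In adjacent tissue the direction was the opposite in the classes that could be compared. The library ratio was 1.06 (0.886 to 1.254) in CPM but 0.813 (0.682 to 0.965) per cell, 0.703 per UMI of the matrix genes and 0.476 as a mean over cells. The median over all genes was 1.51, and 50.1% of genes were higher and 13.7% lower by the rule. Of 3 classes with 30 cells on both sides, 2 were lower with Tim3-KD. B cells had 116 UMIs in 259 Ctrl cells and 77 UMIs in 196 Tim3-KD cells, a ratio of 0.518 (0.383 to 0.697), where 18.9% of genes were lower and 10.3% higher. T cells had a ratio of 0.466 (0.295 to 0.723), where 20.8% of genes were lower and 7.44% higher. Kupffer cells, at 0.799 (0.398 to 1.74), spanned 1, with 9.76% of genes higher and 5.74% lower. B and T cells of adjacent Tim3-KD were deeper, with medians of 9590 UMIs against 5144 in Ctrl and 12530 against 7332. Kupffer cells were not, at 10095.5 against 12040. Per cell the ratios were 0.877 (0.649 to 1.18) for B cells and 0.775 (0.491 to 1.202) for T cells, and neither then passed the rule. At 1 class mix the ratio was 0.534 (0.428 to 0.666), and per cell it was 0.860 (0.684 to 1.08). These 3 classes held 77.0% of the UMIs of adjacent Tim3-KD but 11.6% of those of adjacent Ctrl. Neutrophil markers summed to 139 CPM in adjacent Ctrl B cells and to 31.8 CPM in Tim3-KD ones, and to 108 and 45.3 CPM in T cells, which would carry at most 0.758 CPM of Cd274. B cell markers in T cells summed to 406 and 153 CPM, which would carry 2.33 and 0.498 CPM beside T cell levels of 42.8 and 19.9 CPM.

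Between sites, in Ctrl, Cd274 was lower in micrometastasis in mature neutrophils, precursors and T cells. The library CPM had a micrometastasis over adjacent ratio of 1.02 (0.927 to 1.12), which per cell was 0.657 (0.598 to 0.723), and 26.1% of genes were higher and 1.53% lower. Mature neutrophils had a ratio of 0.340 (0.292 to 0.397), where 17.9% of genes were lower, 9.12% were higher and 1.53% had a ratio below that of Cd274. Each of the 3 mature neutrophil clusters compared was lower too, at 0.520 for the Saa3 and Il1b cluster, 0.327 for the Prok2 and Stfa2 cluster and 0.627 for the Acod1 and Isg15 cluster. In these clusters 10.8%, 1.55% and 7.98% of genes had a ratio below that of Cd274. The Acod1 and Isg15 cluster was 411 of 572 adjacent and 258 of 1501 micrometastasis mature neutrophils. Precursors had a ratio of 0.482 (0.308 to 0.744), where 8.21% of genes were lower and 25.2% higher, though the shares of the precursor clusters differed between the sites and the ratio within them was 0.428 (0.203 to 0.842) for the one led by Ly6g and Ltf and 0.854 (0.208 to 2.65) for the one led by Fcnb. T cells had a ratio of 0.584 (0.3998 to 0.852), where 8.88% were lower and 9.82% higher. Monocytes were higher at 1.52 (1.05 to 2.25), where 24.1% of genes were higher and 6.61% lower, though their clusters were not: the ratio was 0.933 in the Thbs1 and Ccr2 cluster and 0.595 in the Ass1 and F13a1 cluster, and per monocyte it was 0.703. The mature neutrophil markers in the adjacent monocytes would carry 6.37 CPM, the whole of their Cd274 level, and the part of such reads in this ratio was not tested. The other classes spanned 1. B cells had a ratio of 1.07 (0.853 to 1.36; 12.3% of genes higher, 6.54% lower), which per cell was 0.760 (0.605 to 0.960). Lesion macrophages had 1.02 (0.690 to 1.58; 11.5% higher, 10.3% lower) and Kupffer cells 1.83 (0.988 to 3.75; 4.61% higher, 9.47% lower). The lesion macrophage ratio rests on the main clustering, with 38 adjacent Ctrl cells. Other clusterings put 14, 9 or 6 adjacent Ctrl cells in that class, under the limit of 30. Dendritic cells had 2.17 (0.649 to 11.4; 10.2% higher, 9.02% lower), NK or ILC1 cells 1.17 (0.377 to 4.80; 6.29% higher, 7.45% lower) and progenitors 1.83 (0.865 to 4.15; 10.5% higher, 3.71% lower). In Tim3-KD the library ratio was 0.670 (0.569 to 0.792), where 14.2% of genes were higher and 63% lower. B cells were higher in micrometastasis at 3.16 (2.07 to 4.73; 13.9% of genes higher, 6.33% lower), Kupffer cells at 3.81 (2.66 to 5.59; 15.9% higher, 13.9% lower) and T cells at 1.75 (1.14 to 2.74; 28.1% higher, 10.2% lower). Endothelial cells, with 3 UMIs in micrometastasis and 1 in adjacent tissue, spanned 1 (16.5% higher, 21.1% lower). Per cell these ratios were 1.29, 2.36 and 0.715, so that of T cells turned its direction and the interval of B cells spanned 1 (0.847 to 1.93). T cells led by Cd8b1 were 3 of 125 adjacent and 151 of 355 micrometastasis T cells, and within the other T clusters the ratio was 3.60 (1.65 to 8.06; Il7r and Lef1) and 1.31 (0.631 to 2.77; Xcl1 and Ifng). Kupffer cells were of 2 clusters, and the one with less Cd274 held 58 of the 106 adjacent cells but 3 of the 255 micrometastasis cells. Within the other cluster the ratio was 3.25 (2.21 to 4.95), and per cell 1.295 (0.880 to 1.97). Site and library cannot be told apart in any of these comparisons.

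Receptors and other ligands of the same axis were measured beside Cd274. PD-1 itself (Pdcd1) and the PD-L1 stabilisers Cmtm6 and Cmtm4 were not analysed here. PD-L2 (Pdcd1lg2), the second PD-1 ligand, had 1.93 CPM in adjacent Ctrl and 7.62 CPM in adjacent Tim3-KD, a ratio of 3.95 (2.68 to 5.82), and 3.84 and 3.61 CPM in the macrometastasis libraries, a ratio of 0.941 (0.767 to 1.16), or 1.22 (0.994 to 1.498) per cell. By class in adjacent tissue it had 7.93 CPM (4.33 to 13.3) in B cells of Ctrl and 15.03 CPM (10.4 to 21.0) in those of Tim3-KD. That direction is opposite to Cd274 there, but it rests on 14 and 34 UMIs with overlapping intervals and was not called by the rule. In T cells it had 14.04 and 11.5 CPM on 20 and 19 UMIs. It had 0 UMIs in Kupffer cells of both libraries, where a count of 0 allows up to 9.81 and 2.39 CPM by its exact interval. Cd80, which binds CD28, CTLA-4 and PD-L1, was lower in CPM with Tim3-KD at each site, but not per cell in macrometastasis: 12.4 and 7.20 CPM in adjacent tissue (ratio 0.580, 0.424 to 0.778), 13.6 and 8.22 CPM in micrometastasis (0.606, 0.545 to 0.673) and 18.0 and 15.5 CPM in macrometastasis (0.857, 0.779 to 0.942). Counted per cell, the Cd80 ratios were 0.446, 0.860 and 1.11 (1.0098 to 1.22). Over all genes the median library ratio in CPM was 1.51 in adjacent tissue (13.7% lower by the rule) and 0.741 in micrometastasis (37.5% lower). In mature neutrophils Cd80 was at 51.3 CPM in adjacent Ctrl, 31.3 CPM in micrometastasis Ctrl and 18.2 CPM in micrometastasis Tim3-KD. They held 193 of the 380 Cd80 UMIs of adjacent Ctrl, and were 572 cells there against 19 in adjacent Tim3-KD. Within the other adjacent classes compared, Cd80 had 10.2 (Ctrl) and 0.884 CPM (Tim3-KD) in B cells on 18 and 2 UMIs. It had 26.6 and 17.5 CPM in Kupffer cells on 10 and 27 UMIs, and 4.91 and 0.604 CPM in T cells on 7 and 1 UMIs. In micrometastasis classes other than mature neutrophils the values went either way: Cd80 had 19.03 CPM (Ctrl) and 24.9 CPM (Tim3-KD) in lesion macrophages, 5.74 and 14.5 CPM in B cells on 18 and 5 UMIs, 3.07 and 5.73 CPM in T cells on 7 and 11 UMIs, and 18.2 and 17.4 CPM in Kupffer cells, with overlapping counting intervals in each of these 4 classes. Monocytes were lower, at 16.5 CPM (13.9 to 19.4) and 9.71 CPM (8.17 to 11.5). Precursors had 4.46 CPM (3.49 to 5.60) and 3.14 CPM (2.61 to 3.75). Cd86, the other CD28 ligand, had 20.3 and 64.1 CPM over the adjacent libraries, whereas within B cells it had 47.6 and 33.6 CPM and within Kupffer cells 229 and 201 CPM, neither past the 1.5-fold rule. Per cell these were 0.324 and 0.388 UMIs in B cells and 2.77 and 2.92 UMIs in Kupffer cells.

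The receptors of the axis on T cells were lower over the micrometastasis Tim3-KD library and closer within T cells. Over the micrometastasis libraries Cd28 had a Tim3-KD over Ctrl ratio of 0.626, the inhibitory receptor gene Ctla4 of 0.519 and the costimulatory receptor gene Icos of 0.530. The median over all genes was 0.741. Within T cells of these libraries the levels were closer: Cd28 had 284 and 315 CPM, Ctla4 253 and 229 CPM, and Icos 198 and 159 CPM. In adjacent tissue the library ratios were 2.93 for Cd28, 2.41 for Ctla4 and 4.24 for Icos, where the median over all genes was 1.51. Within T cells of adjacent tissue, Cd28 had 328 and 201 CPM, Ctla4 202 and 93.1 CPM, and Icos 174 and 106 CPM. The median depth of these T cells was 7332 UMIs in Ctrl and 12530 in Tim3-KD, and per cell the values were 2.61 and 2.66 UMIs for Cd28, 1.61 and 1.23 for Ctla4, and 1.39 and 1.41 for Icos. In macrometastasis the library ratios were 0.937 (0.866 to 1.014) for Cd28, 1.18 for Ctla4 and 0.885 for Icos, and per cell all 3 were over 1, at 1.21, 1.53 and 1.15. Icosl, the ligand of ICOS, had 46.8 CPM in B cells of adjacent Tim3-KD against 24.9 CPM in those of Ctrl, and 23.9 and 31.9 CPM in those of micrometastasis.

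Over class-by-library profiles, the gene most like Cd274 was Nfkbie, an inhibitor of NF-kB. Profiles were the log2(CPM + 10) levels of 30 classes in their libraries, each of at least 50 cells, and 2228 genes were ranked. Nfkbie had a Pearson r of 0.858 and a Spearman rho of 0.859. After it came Gm11737 (r = 0.799), Impact (0.796), the interleukin-1 receptor kinase gene Irak2 (0.755), Pramef8 (0.735), Arid5b (0.732), Mgat4a (0.725), the stress regulator gene Ddit3 (0.717), Zbtb24 (0.715) and the survival gene Bcl2a1b (0.711). The 30 profiles come from 4 libraries and share cell types, so they are not independent, and the values are a description. Over all genes the median r was 0.203 and 199 were over 0.5. Among 18 interferon gamma targets the median r was 0.429 and 6 were over 0.5, among 8 genes of the interferon gamma pathway the median was 0.347, and among 15 NF-kB and inflammatory genes it was 0.1495. Relb, a subunit of NF-kB, had an r of 0.673. Of 5 axis genes, Cd80 had an r of 0.580 and Icosl of 0.531, while Cd28 had 0.0867, Ctla4 0.124 and Icos 0.187, with a median of 0.187.

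Within the 2 to 4 classes that could be used, cells with a Cd274 UMI carried more of several interferon-induced and NF-kB genes than cells of the same class and library without one, at an equal depth of 1500 UMIs. With clusters as the strata, the medians of the NF-kB and type I interferon lists came near that of all genes, as given below. The comparison within classes used 99 positive cells of adjacent Ctrl, 193 of micrometastasis Ctrl and 117 of micrometastasis Tim3-KD, from the classes with at least 20 of them. These were B cells (24) and mature neutrophils (75) in adjacent Ctrl, and B cells (57), Kupffer cells (23), lesion macrophages (49) and mature neutrophils (64) in micrometastasis Ctrl. In micrometastasis Tim3-KD they were Kupffer cells (26) and mature neutrophils (91), so the classes differed between libraries. By the 1.5-fold rule 16.8%, 11.6% and 20.8% of all genes tested in these libraries were higher. Of 11 interferon gamma targets, 10 had a ratio over 1 as the geometric mean over libraries, with a median of 1.80. Of 965 genes in all, 698 had, with a median of 1.18. Cxcl10 was highest, with ratios of 5.13 and 9.94 in micrometastasis Ctrl and Tim3-KD. Ifi47 followed with 2.99, 2.40 and 1.94 in adjacent Ctrl, micrometastasis Ctrl and Tim3-KD, and Irgm1, another interferon-induced GTPase gene, had 1.60, 2.20 and 1.97. Ciita, the master regulator of MHC class II genes, was the one below 1, at 0.660.

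The other lists of several tested genes had lower medians. All 14 NF-kB and inflammatory genes had a ratio over 1, with a median of 1.51: the adhesion gene Icam1 and Myc each had 1.85 and the NF-kB inhibitor gene Tnfaip3 had 1.71, whereas Tlr2 had 1.07 and Cd14 1.03. Of 14 type I interferon targets 12 were over 1, with a median of 1.38. Rsad2 had 1.91 and Ifit1 1.83, both antiviral effector genes, whereas Ifi204 had 0.819 and Ifi44 had 0.782. All 7 genes of the interferon gamma pathway were over 1, with Stat2 at 2.03, Irf9 at 1.65, the feedback inhibitor gene Socs3 at 1.57, Jak2 at 1.40 and Irf8 at 1.34. Of the axis, Cd80 could be tested in adjacent Ctrl alone, with a ratio of 2.94. Of the suppressive myeloid genes, Vegfa had 1.91, Ptgs2 1.54 and Trem1 1.09. With clusters in place of classes as the strata, the medians were lower, at 1.15 for NF-kB genes, 1.07 for type I interferon targets, 1.61 for interferon gamma targets and 1.09 over all genes tested, and the listed genes called higher in at least 1 library were 13 in place of 29.

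**Figure D5:**
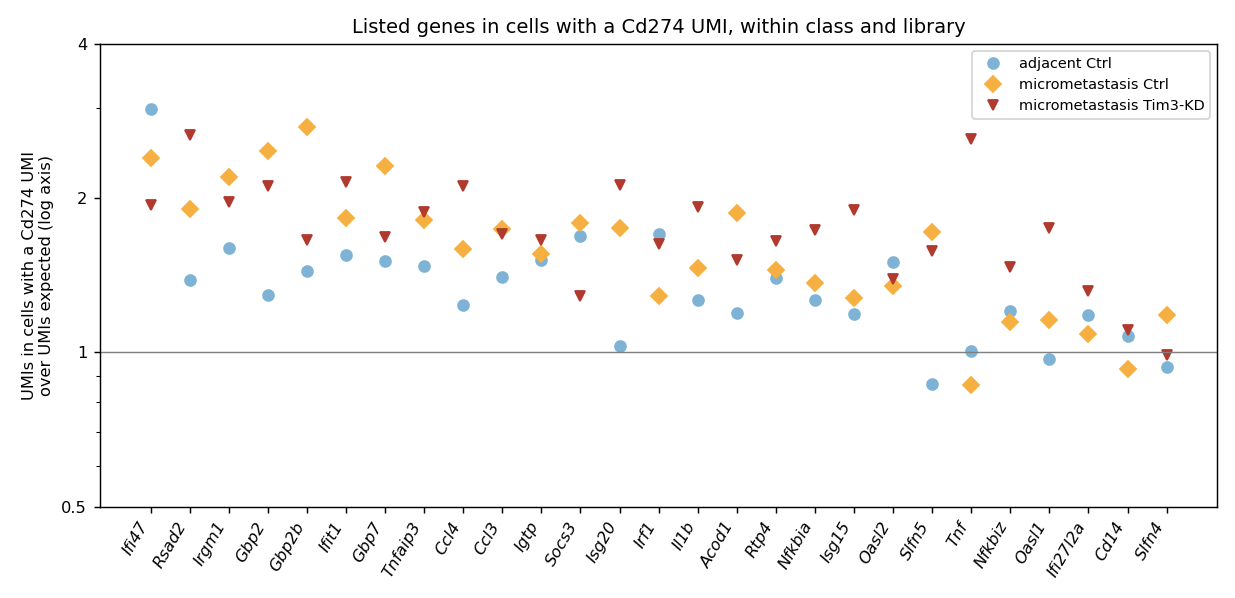
Ratio of each listed gene's level in cells with a Cd274 UMI over cells of the same class and library without one (log axis, at 1500 UMIs a cell), for the 27 genes tested in adjacent Ctrl, micrometastasis Ctrl and micrometastasis Tim3-KD. Ifi47 lies at 1.94 to 2.99 and Irgm1 at 1.60 to 2.20 in the 3 libraries.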

How the data were processed

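Single-cell libraries of CD45+ liver cells were used, 6 in all, 1 per group. Per the labels and methods, the authors trimmed reads with Trim Galore 0.4.3, mapped them with STAR 2.7.7a to GRCm38, counted UMIs over exons and introns, kept cells of over 1000 and under 500000 UMIs, over 1000 genes and under 20% mitochondrial reads, and removed doublets by scrublet at 0.15. The deposited matrices hold scaled score values capped at 10, with the UMI total regressed out by the authors, and not counts as the comparisons were designed for. The scores were turned back into UMIs, and 99.9995% (adjacent), 99.9996% (micrometastasis) and 99.9962% (macrometastasis) of values lay within 0.05 of a whole number. On simulated data 100% came back. Of the columns, 0 were left unused.

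Cells were clustered with scanpy 1.11.5 and leidenalg 0.10.2 (30 components, 15 neighbours, resolution 1) on 2283 genes without Cd274. A doublet score over 0.15 was found in 1090 cells (8.66%), which were kept in the main analysis. Levels are UMIs per 1000000 UMIs of all genes (CPM), with exact Poisson intervals, ratios have exact conditional binomial intervals, and ratios at 1 mix have delta-method Poisson intervals. Shares are of cells. Genes were called at 1.5-fold with an interval off 1. On simulated B cells, 60.9% of 2-fold genes and 1.71% of unchanged genes were called, and intervals held the true ratio for 96.7% of 1894 genes. The simulated counts were Poisson, as the intervals assume, so they cannot show how the intervals fare with spread between cells or mice. Named genes are Cd274, the measured PD-1 and CD28 axis, the 10 genes of highest r, and up to 3 highest and 2 lowest of each list by co-detection, of which 1 is not reported here. Other genes named from the lists within classes, the leading genes of clusters and Relb were chosen after their values were seen. The gene, its lists and comparisons were chosen with earlier results of these data known. Alternatives were other clusterings, cell filters, scalings and strata.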

Additional observations from a re-analysis of the deposited data

Results flagged for a closer look

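In 3 classes and at an equal class mix, the Tim3-KD over Ctrl ratio of Cd274 lay on opposite sides of 1 at adjacent tissue and at micrometastasis. It was 0.518 and 1.52 in B cells, 0.799 and 1.67 in Kupffer cells, 0.466 and 1.39 in T cells, and 0.534 and 1.31 at an equal class mix. With 1 library per group the difference was not tested. The ratio of the 2 ratios, with an interval for counting error only, was 2.94 (1.87 to 4.62) in B cells, 2.09 (1.03 to 4.24) in Kupffer cells and 2.99 (1.72 to 5.20) in T cells. The adjacent ratios of B and T cells, counted per cell, were 0.877 and 0.775, with intervals that span 1. The adjacent Kupffer interval (0.398 to 1.74) and the micrometastasis T interval (0.965 to 2.02) span 1 too. The Kupffer cluster with less Cd274 was 9 of 31 Ctrl and 58 of 106 Tim3-KD cells in adjacent tissue, and in the other cluster the adjacent levels were 29.8 and 27.5 CPM, or 0.455 and 0.625 UMIs per cell, so the direction there depends on the scale.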

How the results depend on the processing

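No paired analysis was possible because each group is 1 library, and leaving out a library would leave its group empty. Macrometastasis comparisons of Cd274 were not run, since that gene was not analysed there. The library ratio in adjacent tissue (main 1.06) was 0.703 per UMI of the matrix genes, 0.698 relative to the trimmed mean of genes, 0.476 as a mean over cells and 0.813 per cell, and the difference of deposited scores was -0.25. In micrometastasis (main 0.695) it was 0.826, 0.943, 0.884 and 0.986 in that order and 0.635 without doublet-scored cells, and the score difference reversed to 0.0153. For micrometastasis over adjacent Ctrl (main 1.02) it was 0.782, 0.828, 0.612 and 0.657. The cause of these shifts was not tested. At an equal class mix, adjacent was 0.860 per cell, and micrometastasis 1.59 over clusters. Lower classes went from 0 to 1 in micrometastasis without doublet-scored cells (monocytes, 0.653, with both of their clusters over 1 when all cells are kept) and from 2 to 0 in adjacent tissue per cell. Class levels above their library went from 14 to 9 per cell, and listed genes higher in cells with a Cd274 UMI from 29 to 44 without thinning and to 13 with clusters as strata. Higher classes in micrometastasis went from 5 to 3 without the cell of most Cd274 UMIs in each class and library. The precursor score difference reversed to -0.0052. The alternatives per cell, without the top cell, over clusters and with clusters as strata were chosen after seeing the data. Across 12 settings B cells ranged from 0.456 to 0.877 in adjacent tissue and 1.45 to 1.71 in micrometastasis, and T cells from 0.409 to 0.775 and 1.32 to 1.71. Few Cd274 UMIs per class limit these ratios.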
